A study of Homo sapiens with 6 samples.

Results

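The respiratory chain subunits encoded in the nuclear genome were followed through 6 RNA-seq libraries of K562, an established human chronic myelogenous leukemia line. Members were the loci with a gene name of the families NDUFA, NDUFB, NDUFC, NDUFS, NDUFV, SDHA to SDHD, UQCR, COX4 to COX8 (followed by A, B or C) and ATP5, without names that end in P and a digit, as many pseudogene names do. The rule used names only and no measured value, though it was set with earlier results of these data known. It gave 86 of 62828 loci, of which 78 had a mean of at least 1 FPKM (fragments per kilobase of transcript, adjusted for library size) over the 6 libraries. The 78 loci were 39 of 40 for complex I, 4 of 4 for complex II, 8 of 8 for complex III, 10 of 15 for complex IV and 17 of 19 for complex V. The other 8 are taken up with the tissue-restricted isoforms. Of the 78, 5 carry a name of these families without being listed as subunits: NDUFA6-AS1, NDUFA4L2, COX7A2L, ATP5S and ATP5SL. They are kept in the counts and medians of the complex that their name gives.

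The series asks, in its title, whether HNRNPU, a nuclear RNA-binding protein, sets where long noncoding RNAs lie. K562 cells received either 300 nM siRNA against HNRNPU or control oligos, and whole-cell, nuclear and cytosolic RNA was taken from each condition. That gives 6 groups of 1 library: control and knockdown, each as whole-cell, nuclear and cytosolic RNA. With 1 library per group there is no replicate check and no test, so every difference below describes these libraries. Where 2 FPKM values are set against each other, the control library comes first and the knockdown library after it.

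The respiratory chain sits in the inner mitochondrial membrane. Complexes I and II pass electrons from NADH and succinate to ubiquinone, complex III hands them to cytochrome c, and complex IV reduces oxygen. Complexes I, III and IV pump protons, and complex V, the ATP synthase, uses the gradient to make ATP. Most subunits are encoded in the nucleus, translated in the cytosol or at the mitochondrial surface, and imported. A small set is encoded by mitochondrial DNA, and the erythroid lineage of which K562 is a model loses its mitochondria at its last stage.

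Promoters of these genes are a textbook setting for NRF1, a transcription factor of nuclear genes for mitochondrial proteins, so their start regions are shown first. RefSeq windows around the transcription start on GRCh38.p14 were matched for 64 members. The palindromic NRF1 motif, searched on both strands, was in 15 of the 64 (23.4%), against 8.67% of 15399 protein-coding promoters. Unlike the members, those 15399 were not limited to loci that passed the minimum of 1 FPKM. The share among expressed protein-coding genes was not computed, so the excess is not shown to be particular to the members. The windows below lie upstream of the start of members that the values below turn on, with the motif match in capitals. They come from genes of complexes I, II, III and V and were picked for holding a match, so their sharing it is no result.

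NDUFA3, chr19:54102660-54102719, plus strand: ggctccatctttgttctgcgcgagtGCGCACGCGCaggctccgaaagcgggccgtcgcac
NDUFA11, chr19:5903854-5903913, minus strand: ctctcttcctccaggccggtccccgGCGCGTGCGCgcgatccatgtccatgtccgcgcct
NDUFA9, chr12:4649009-4649068, plus strand: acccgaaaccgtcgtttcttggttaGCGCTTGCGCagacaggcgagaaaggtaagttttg
SDHA, chr5:218129-218188, plus strand: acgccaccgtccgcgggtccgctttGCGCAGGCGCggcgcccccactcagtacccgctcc
UQCRC1, chr3:48609659-48609718, minus strand: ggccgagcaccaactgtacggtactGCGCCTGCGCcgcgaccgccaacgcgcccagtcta
ATP5I (ATP5ME), chr4:674461-674520, minus strand: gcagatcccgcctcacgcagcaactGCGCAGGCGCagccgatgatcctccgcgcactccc

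Other motifs were counted the same way, on both strands and against the same promoters without the minimum. The ETS core CCGGAAG was in 18 of the 64 member promoters (28.1%), against 14.4% of protein-coding promoters. The YY1 motif was in 9 (14.1%), against 2.31%. The TATA box TATAAA was in 6 (9.38%), against 9.58%. A match is a description of letters and not a bound site. The 15 members with an NRF1 match had a median log2 knockdown/control of 0.01 (whole-cell), 0.11 (nuclear) and 0.03 (cytosolic), and the 49 without had 0.09, -0.01 and 0.05. NRF1 itself, in a locus merged with RNA5SP244, had 6.58 against 6.19 FPKM (whole-cell), 5.65 against 5.63 (nuclear) and 5.84 against 11.7 (cytosolic).

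The subunit RNAs were abundant. Their median was 40.4 against 42.2 FPKM (whole-cell), 39.9 against 40.1 (nuclear) and 110.5 against 120.3 (cytosolic). The median member stood at the 91.4th percentile of the 10304 protein-coding loci that passed the same minimum in control whole-cell RNA. The 78 loci held 1.56% against 1.54% of the protein-coding FPKM sum (whole-cell), 1.53% against 1.41% (nuclear) and 1.92% against 1.96% (cytosolic).

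Levels differed by complex. In control whole-cell RNA the median FPKM was 28.3 for complex I, 26.2 for complex II, 43.97 for complex III, 114 for complex IV and 64.4 for complex V. COX8A, a small subunit of cytochrome c oxidase in a locus merged with OTUB1, was the highest member. It had 244 against 241 FPKM (whole-cell), 239 against 205 (nuclear) and 770 against 720 (cytosolic). COX6A1, the broadly expressed form of another complex IV subunit, followed with 210 FPKM in control whole-cell RNA. The highest complex I locus was NDUFC2 (merged with KCTD14) at 178 FPKM, and the highest complex III locus was UQCRH, the hinge protein, at 195 FPKM. In complex V, ATP5B, the catalytic beta subunit, had 201 FPKM. ATP5G2, the largest contributor to the c subunit, had 195 FPKM. The 3 ATP5G genes encode the same mature c subunit, and ATP5G2 made up 66.4% of their summed FPKM.

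**Figure D1:**
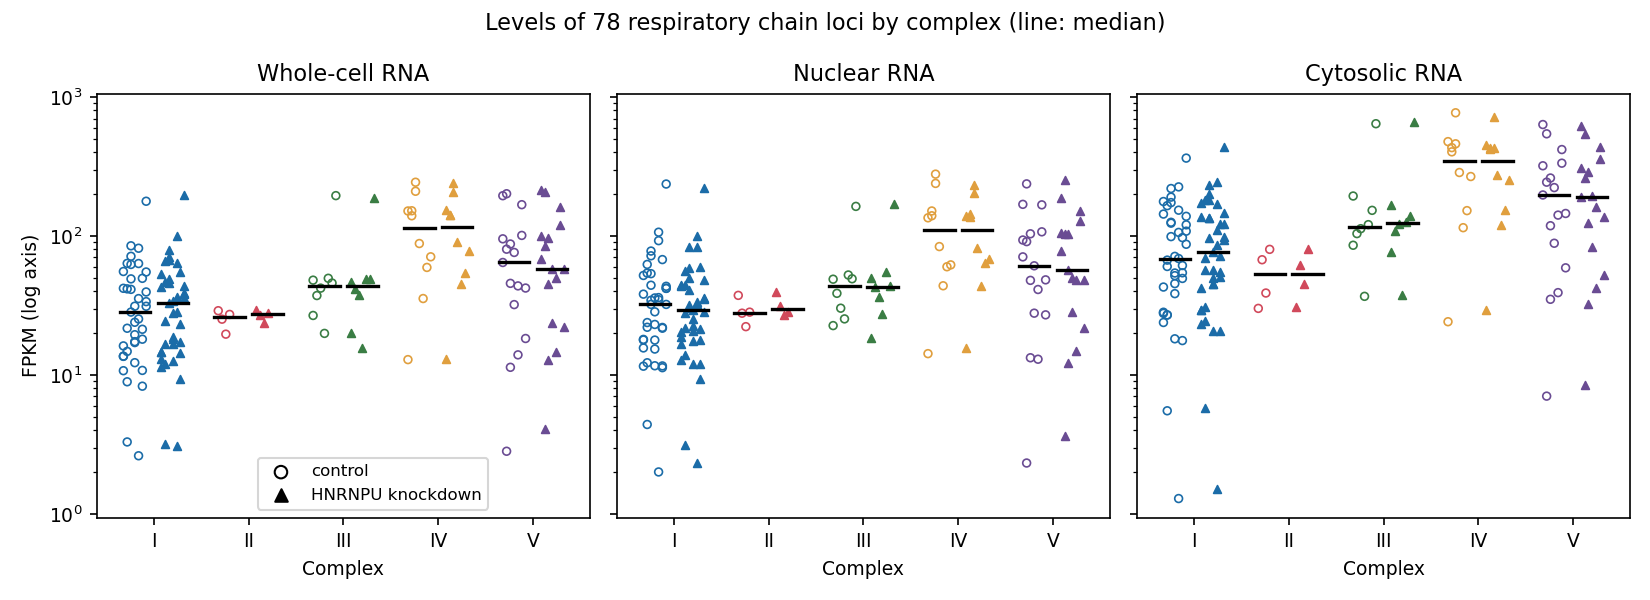
FPKM (log axis) of the 78 loci by complex in the 3 RNA preparations, with open circles for control, filled triangles for knockdown and a line at the median. Complex IV is highest in control whole-cell RNA (median 114 FPKM), and the control and knockdown medians of each complex lie close together.

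Isoforms known from other tissues were low or listed at 0. COX6A2 and COX8C, the muscle and testis forms of their subunits, were listed at 0 FPKM in all 6 libraries. So was ATP5J2LP, a pseudogene by its current RefSeq symbol ATP5MFP1 that the name rule did not drop. COX7A1, the heart and muscle form of COX7A, had 0.081 and 0.199 FPKM in the whole-cell control and knockdown libraries, against 59.4 and 53.8 for COX7A2. COX7B2 had 0.169 FPKM in the control whole-cell library and was listed at 0 after knockdown, and ATP5L2 stayed at or under 0.311 FPKM throughout. COX6B2, a testis form in a locus merged with FAM71E2, had 1.67 against 0.476 FPKM (whole-cell). Antisense NDUFB2-AS1 was the remaining locus under the minimum. NDUFA4L2, a hypoxia-induced relative of NDUFA4, was low but kept, with 3.29 against 3.19 FPKM (whole-cell), 4.40 against 3.10 (nuclear) and 5.52 against 5.81 (cytosolic). NDUFA4 itself, which is now placed in complex IV and is counted by its name in complex I here, had 10.7 against 11.4 FPKM in whole-cell RNA.

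The subunit RNAs were near their control levels in the HNRNPU knockdown library of each preparation. The HNRNPU locus itself, which includes HNRNPU-AS1, had 129 against 55.3 FPKM (whole-cell), 163 against 63.7 (nuclear) and 158 against 34.9 (cytosolic). The median log2 knockdown/control of the members, on the log2(FPKM + 0.1) scale, was 0.07 for the whole-cell pair, 0.02 for the nuclear and 0.06 for the cytosolic pair. For protein-coding loci it was 0.07, 0.04 and 0.04.

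No member was 1.5-fold higher or lower in whole-cell RNA, where 3.29% of protein-coding loci were higher and 2.26% lower by that much. In nuclear RNA 1 member was at least 1.5-fold higher (2.25% of protein-coding loci) and 0 were lower (2.92%). In cytosolic RNA it was 0 in either direction (3.28% and 3.04%). The members also lay closer to no difference than the typical locus: the median size of the log2 ratio was 0.11 against 0.16 for protein-coding loci (whole-cell), 0.15 against 0.17 (nuclear) and 0.10 against 0.16 (cytosolic). Members are more abundant than most loci, and the part of abundance in this was not tested. By an estimated counting error, 29 of 78 ratios lay outside the 95% counting range around 0 for the whole-cell, 39 for the nuclear and 30 for the cytosolic pair, against 42.7%, 51.8% and 43.9% of protein-coding loci.

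The 1 member past 1.5-fold was ATP5S, which carries an ATP synthase name as coupling factor B without being one of the structural subunits (hg19 chromosome 14, 50779043 to 50802276). It had 2.82 against 4.06 FPKM (whole-cell), 2.32 against 3.63 (nuclear) and 7.03 against 8.45 (cytosolic). The knockdown library was the higher in each preparation, with log2 ratios of 0.51, 0.62 and 0.26 and estimated counting errors of 0.14, 0.14 and 0.11. Its nuclear ratio was under 1.5-fold with a pseudocount of 1 FPKM (0.48).

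**Figure D2:**
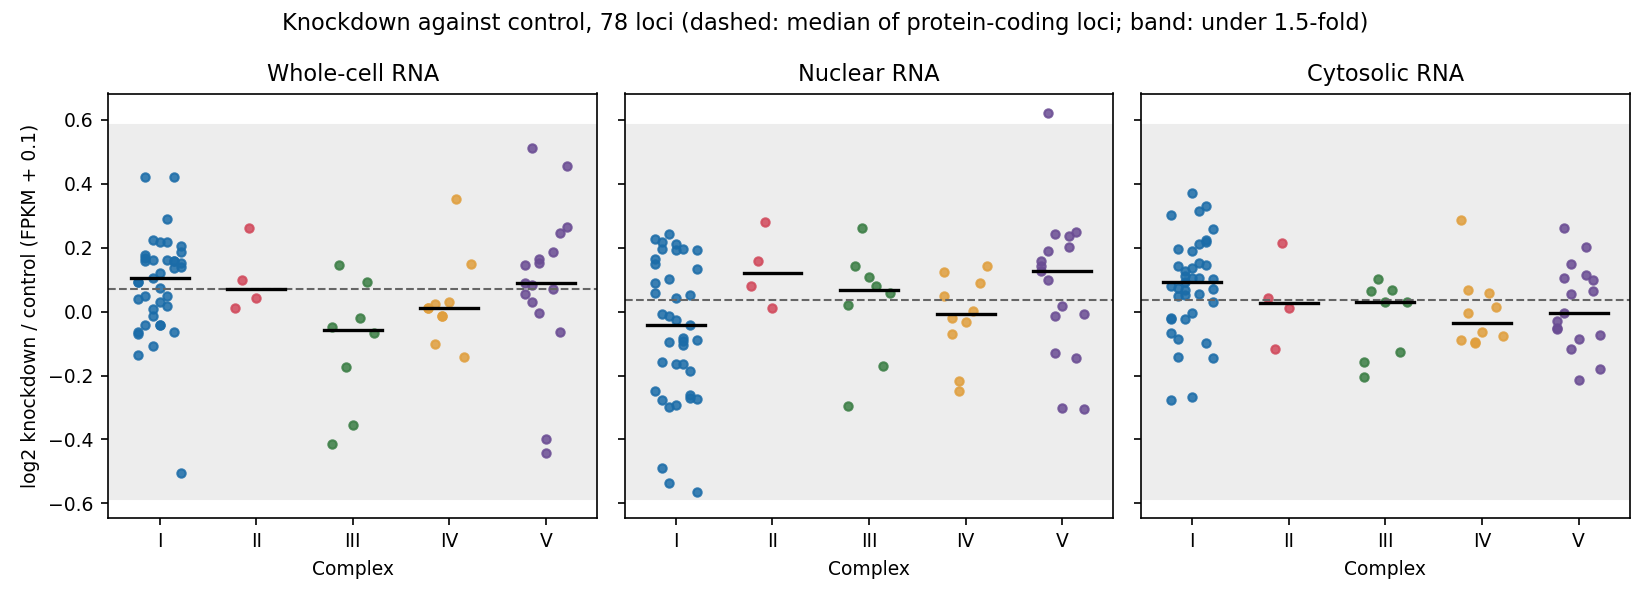
Log2 knockdown/control of the 78 loci by complex in the 3 preparations, with a black line at each complex's median, a dashed line at the protein-coding median and a grey band for less than 1.5-fold. All points but ATP5S in nuclear RNA (0.62) lie inside the band.

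Complex I takes in electrons from NADH through a core that includes 7 nuclear-encoded subunits. Its 39 loci had median log2 ratios of 0.10 (whole-cell), -0.04 (nuclear) and 0.09 (cytosolic), and 29, 16 and 28 of them were above 0. The background above 0 was 63.1%, 55.4% and 56.5% of protein-coding loci. NDUFS7, a core iron-sulfur subunit next to the ubiquinone site, had the lowest nuclear ratio of all members. Its locus lies on hg19 chromosome 19, 1383525 to 1395583. It had 33.7 against 38.4 FPKM (whole-cell), 41.9 against 28.3 (nuclear) and 108 against 97.9 (cytosolic). The nuclear log2 ratio was -0.57 (estimated counting error 0.06), while the whole-cell ratio was 0.19. The nuclear ratio was past 1.5-fold when libraries were scaled to the protein-coding median (-0.60) or quantile normalized (-0.66). NDUFA11, a membrane-arm accessory subunit in a locus merged with FUT5, had 49.1 against 49.3 FPKM (whole-cell), 44.2 against 30.4 (nuclear) and 125 against 135 (cytosolic). Its locus lies on hg19 chromosome 19, 5865836 to 5904017, and its log2 ratios were 0.01, -0.54 and 0.11.

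NDUFA3, another accessory subunit, had the lowest whole-cell ratio at -0.51 (estimated counting error 0.13), which was past 1.5-fold with quantile normalization (-0.66). It had 55.0 against 38.7 FPKM (whole-cell), 43.4 against 35.9 (nuclear) and 138 against 145 (cytosolic), so the knockdown library was lower in the first 2 and higher in the third. NDUFC1 (merged with MGARP) and NDUFB6 were at the other end in whole-cell RNA, both at 0.42. In cytosolic RNA NDUFA6 was highest (0.37), and NDUFA9 (-0.28) and NDUFS4 (-0.27) were lowest. NDUFS1, which holds iron-sulfur clusters, and NDUFA7 (merged with CD320) had 0.30 and 0.33 there.

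Complex II oxidises succinate and has no mitochondrially encoded subunit. Its medians were 0.07 (whole-cell), 0.12 (nuclear) and 0.03 (cytosolic), with 4, 4 and 3 of 4 loci above 0. The protein-coding shares above 0 were 63.1%, 55.4% and 56.5%. SDHA, its flavoprotein (hg19 chromosome 5, 218355 to 256815), had 28.97 against 29.2 FPKM (whole-cell), 37.4 against 39.5 (nuclear) and 30.1 against 31.0 (cytosolic). SDHB, the iron-sulfur subunit, had 25.2 against 27.0 FPKM in whole-cell RNA, and SDHD, a membrane anchor in a locus merged with BCO2 and TEX12, had 27.2 and 28.1. SDHC, the other anchor, was higher in the knockdown library of every preparation, with 19.6 and 23.6, 22.2 and 27.1, and 38.8 and 45.1 FPKM. Its log2 ratios were 0.26, 0.28 and 0.21.

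Complex III had medians of -0.06 (whole-cell), 0.07 (nuclear) and 0.03 (cytosolic), with 2, 6 and 5 of 8 loci above 0, beside the protein-coding shares of 63.1%, 55.4% and 56.5%. UQCR10, a small subunit, was lower in the knockdown library of each preparation: 26.8 against 20.1 FPKM (whole-cell), 22.6 against 18.4 (nuclear) and 85.7 against 76.8 (cytosolic). UQCRC1, a core protein, had 19.9 against 15.5 FPKM (whole-cell) but 25.3 against 27.3 (nuclear) and 36.8 against 37.6 (cytosolic). The lower value of UQCRC1 was thus in 1 of 3 preparations.

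Complex IV had medians of 0.01 (whole-cell), -0.01 (nuclear) and -0.03 (cytosolic). COX5A, which lies on the matrix side, had 151 against 153 FPKM (whole-cell), 135 against 140 (nuclear) and 477 against 449 (cytosolic). COX4I1, the main form of the subunit COX4, is not matched by the name rule and had 133 and 136, 132 and 134, and 393 and 399 FPKM. Its alternative form COX4I2 was listed at 0 in all 6 libraries.

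Complex V had medians of 0.09 (whole-cell), 0.13 (nuclear) and -0.01 (cytosolic). ATP5D, the delta subunit of the central stalk, was lower in every preparation, with 76.1 and 57.8, 61.0 and 49.4, and 223 and 192 FPKM. Its log2 ratios were -0.40, -0.30 and -0.21. ATP5I and ATP5L, subunits e and g of the membrane part, stood at opposite ends in whole-cell RNA. ATP5I had 32.1 and 23.6 FPKM there (-0.44), and ATP5L had 42.2 and 57.9 (0.46). In the fractions both lay near 0, at 0.02 and -0.01 (nuclear) and -0.08 and -0.07 (cytosolic). ATPIF1, the inhibitor of the ATP synthase and not matched by the rule, had log2 ratios of 0.56, -0.23 and 0.45, from 31.6 against 46.6 FPKM (whole-cell), 45.9 against 39.0 (nuclear) and 70.7 against 96.9 (cytosolic). The 7 kept chain genes that the rule misses, ATPIF1 and COX4I1 among them, had medians of 0.12 (whole-cell), 0.01 (nuclear) and 0.04 (cytosolic).

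Across preparations, 19 of 78 members were higher after knockdown in all 3 (26.9% of protein-coding loci) and 7 were lower in all 3 (12.9%). These 2 counts moved to 12 and 12 when each library was scaled to its protein-coding median. The protein-coding shares under that scaling were not computed. Both counts are near the background, and neither is a result about the members.

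The subunit RNAs lay more toward the cytosolic library than most. Cytosolic FPKM exceeded nuclear FPKM in 76 of 78 members in the control (73.3% of protein-coding loci) and in 76 of 78 after knockdown (75.2%). It was at least 2-fold above nuclear FPKM in 60 members in the control (32.8%) and 62 after knockdown (32.0%). The median log2 nuclear/cytosolic ratio was -1.40 in the control and -1.45 after knockdown, against -0.61 in both conditions for protein-coding loci. The scaling between fractions sets the absolute value, so the distance to the protein-coding median is the readable quantity: -0.79 in the control and -0.84 after knockdown. With quantile normalization that distance was -0.37 and -0.40. Transcript length moves with this ratio, with a Spearman rho of 0.31 over 10304 protein-coding loci and 0.23 over 78 members in the control. The members' median transcript length was 898 bases, against 2609 for protein-coding loci, and the part of length in the distance was not tested.

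Complex III had the lowest control median (-1.77) and complex II the highest (-1.04). COX7A2L, a supercomplex factor with a COX7A name, was the most cytosolic member, with 61.9 FPKM in nuclear and 268 in cytosolic control RNA (-2.11). NDUFC1 (-2.08), UQCRQ (-1.99), UQCRH (-1.98) and UQCR10 (-1.92) followed. At the other end were NDUFA6-AS1, an antisense transcript beside NDUFA6 with 2.00 and 1.29 FPKM (0.60), and SDHA with 37.4 and 30.1 FPKM (0.31). NDUFV1 (-0.31) and NDUFA4L2 (-0.32) were also among the 5 highest.

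SDHA has near-identical pseudogene copies, and no source used here gives how fragments were shared between them. The SDHAP1 locus had 28.5 FPKM in nuclear and 4.77 in cytosolic control RNA, and SDHAP3 had 5.50 and 1.36. SDHAP2, merged with LINC00969 and MUC20, had 36.8 and 20.8 FPKM. The position of SDHA among the members is therefore uncertain. Its nuclear/cytosolic log2 ratio was 0.31 in the control and 0.35 after knockdown.

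**Figure D3:**
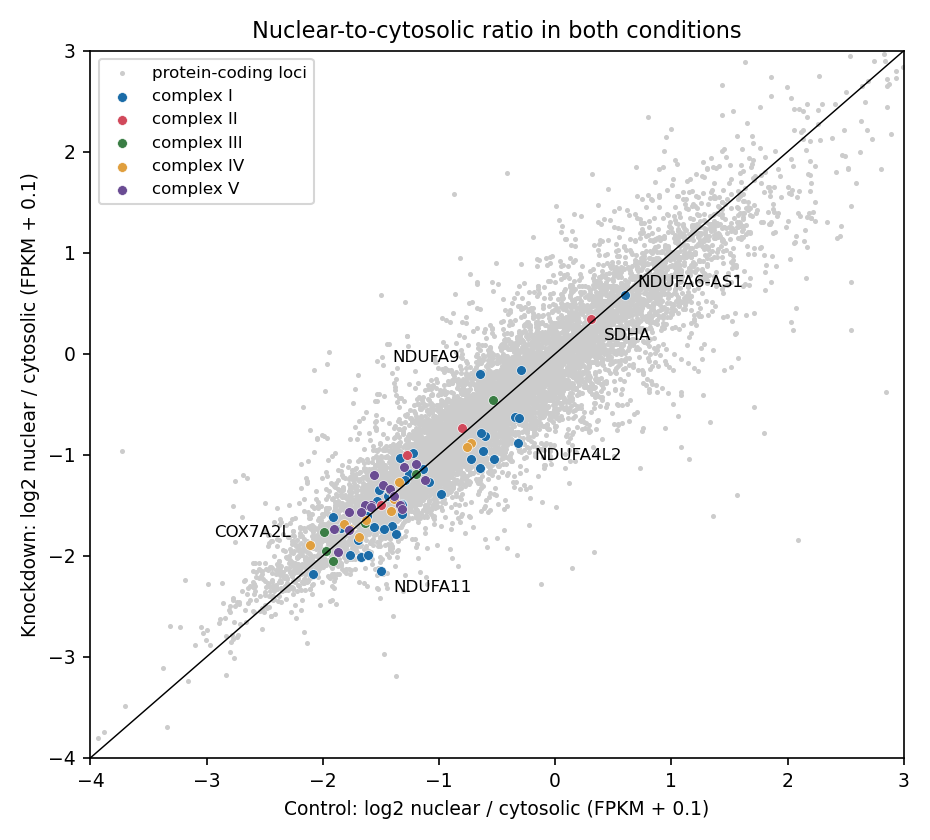
Log2 nuclear/cytosolic FPKM in the control (x axis) and after knockdown (y axis), with members coloured by complex over the protein-coding loci in grey, a line of equality and axes limited to -4 to 3. Members lie mostly at -1 to -2 on both axes, SDHA and NDUFA6-AS1 lie above 0, and NDUFA11 lies below the line.

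The localization shift is the log2 nuclear/cytosolic ratio after knockdown minus that in the control. Its median over members was -0.00048, and 38 of 78 were above 0 (50.3% of protein-coding loci). At least 1.5-fold lower shift was seen in 1 member (5.62%) and higher in 0 (4.3%). The 1 member was NDUFA11, at -0.65 (estimated counting error 0.07). NDUFA4L2 (-0.56), NDUFA7 (-0.52) and NDUFS6 (-0.49) came after it. NDUFA9, in a locus merged with DYRK4, GALNT8 and KCNA6, had the highest shift (0.44), before ATP5S (0.36), NDUFA10 (0.31) and NDUFB5 (0.30). Complex I had a median shift of -0.17 with 13 of 39 above 0, and complex V 0.09 with 12 of 17 above 0, a difference that was not tested.

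Mitochondrially encoded subunits of the same complexes gave other values. Over 10 loci their control nuclear/cytosolic log2 median was 1.15, and it was 1.70 after knockdown. As they are encoded by mitochondrial DNA, this ratio gives no position in the nucleus. Their summed FPKM was 51625 against 65048 (nuclear) and 24342 against 20717 (cytosolic). The share of mitochondria in each fraction, and any difference in it between the conditions, was not tested. The nuclear log2 knockdown/control median of these 10 loci was 0.42, with 10 of 10 above 0, against 0.02 for the nuclear-encoded members. MT-ND1 had 3233 against 4292 FPKM (nuclear). The 76 mitochondrial ribosomal protein loci, which are also nuclear-encoded and imported, had a control nuclear/cytosolic median of -1.36 and the 84 cytosolic ribosomal protein loci -2.10. TCA cycle enzymes (13 loci) and glycolysis (16 loci) were both at -0.87.

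**Figure D4:**
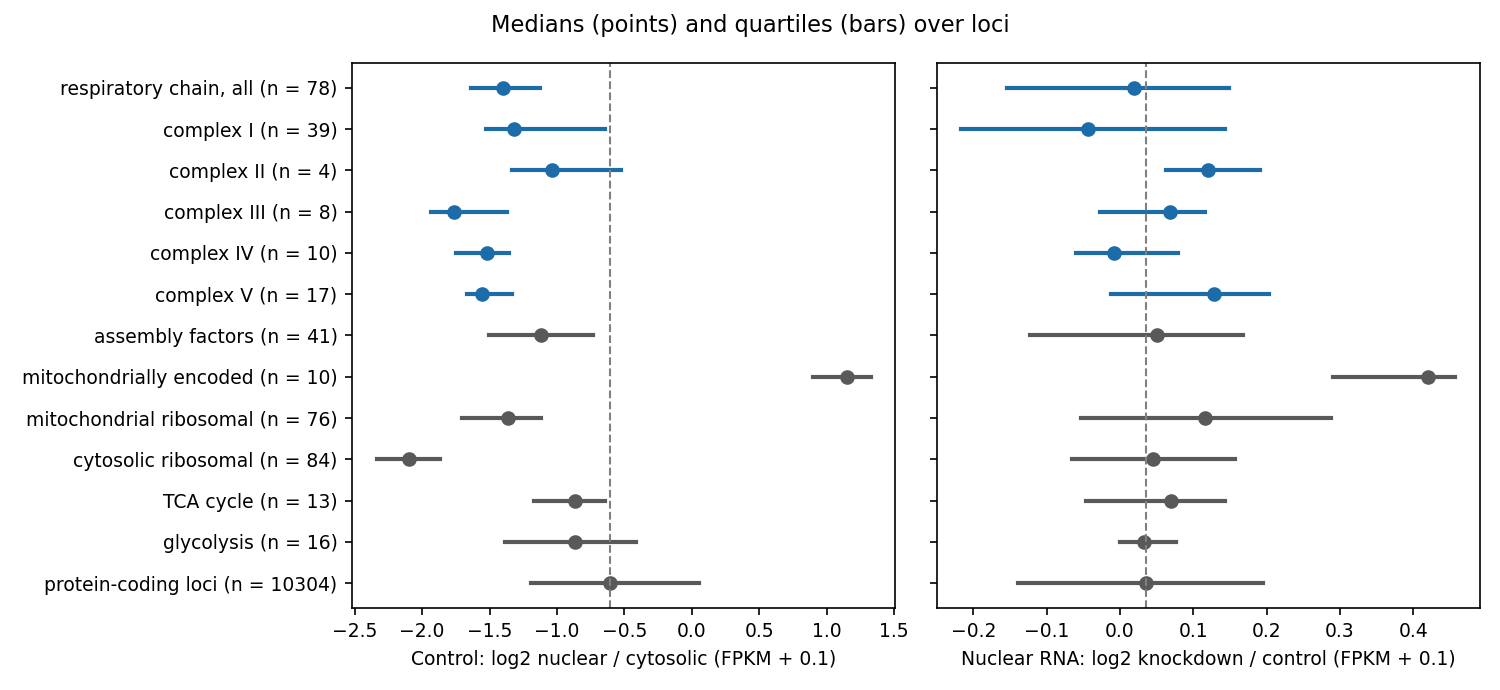
Medians (points) and quartiles (bars) over loci of the control log2 nuclear/cytosolic ratio (left) and the nuclear log2 knockdown/control ratio (right), with a dashed line at the protein-coding median. Respiratory chain loci lie at -1.40 on the left beside mitochondrial ribosomal proteins at -1.36, and mitochondrially encoded subunits stand apart at 1.15.

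Assembly factors, which build the complexes without staying in them, were more cytosolic than protein-coding loci but less than the subunits, at -1.12 in the control over 41 loci. Of the 41, 1 was at least 1.5-fold higher and 1 lower in whole-cell RNA, beside 3.29% and 2.26% of protein-coding loci. In nuclear RNA 2 were higher (COX20 and NDUFAF4, at 0.96) and 1 was lower (BCS1L, at -0.61), beside 2.25% and 2.92%. In cytosolic RNA 2 were higher (COX20 and NUBPL) and 1 was lower (UQCC1, at -0.61), beside 3.28% and 3.04%. COX20, a complex IV factor whose gene overlaps HNRNPU, had 6.32 against 16.01 FPKM (whole-cell), 3.29 against 7.19 (nuclear) and 20.1 against 39.5 (cytosolic). The use of strand in counting is not known, so fragments of COX20 and HNRNPU may not be separated. NUBPL, an iron-sulfur assembly factor of complex I, had 7.49 against 3.36 FPKM (whole-cell), 3.76 against 3.82 (nuclear) and 6.30 against 11.9 (cytosolic). The 2 factors thus had the same direction in all preparations (COX20) and opposite directions in whole-cell and cytosolic RNA (NUBPL).

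Nuclear ratios of the members ran with base composition. The Spearman rho between the nuclear log2 knockdown/control and the GC content of the transcripts was -0.61 over 78 members, as a description, with -0.37 over 10304 protein-coding loci and -0.49 over 76 mitochondrial ribosomal protein loci. It was -0.06 in whole-cell and -0.21 in cytosolic RNA over the members. In the third of members with the lowest GC content the nuclear median was 0.14 and 20 of 26 were above 0. In the third with the highest it was -0.17 and 7 of 26 were above 0. Protein-coding loci within the same bounds had 0.12 and -0.08.

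Of the 10 members with the lowest nuclear ratio, 9 had a GC content above 50%, and 5 were on chromosome 19. Above 50% were 38 of all 78 members and 1 of the 10 with the highest nuclear ratio. NDUFS7 (66.8% GC), NDUFA11 (62.7%) and NDUFA4L2 (62.9%) were the lowest. ATP5D had the highest GC content of all kept members (69.0%). NDUFA5, with the lowest (34.6%), had a nuclear ratio of 0.24. The 11 kept members on chromosome 19 had a nuclear median of -0.19 with 1 above 0, and the other 67 had 0.06. Protein-coding loci on chromosome 19 had -0.07 with 276 of 751 above 0, and those elsewhere 0.05 with 5430 of 9553 above 0, so a lower nuclear ratio on this chromosome is not particular to the members. The knockdown nuclear library was also the deepest: 1 FPKM over 1 kilobase stood for about 39.0 fragments there and 19.4 in the control nuclear library. The points share these 2 libraries. Nuclear ratios ran with transcript length too. That rho was 0.47 over the members, 0.085 over protein-coding loci and 0.17 over mitochondrial ribosomal protein loci. The part of GC content, length or depth in the nuclear ratios was not tested.

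**Figure D5:**
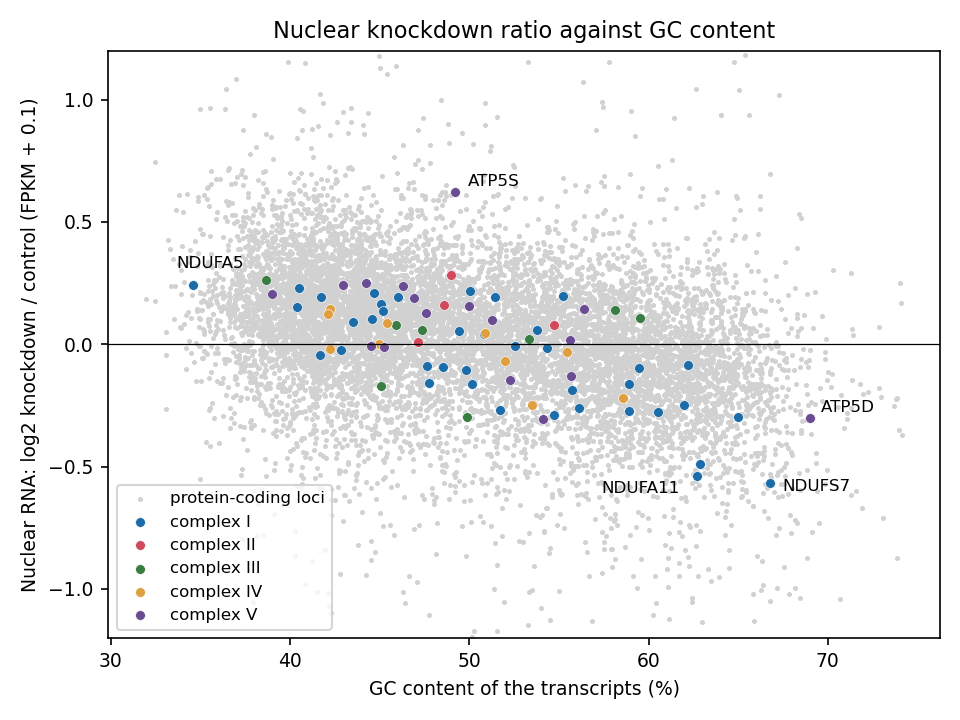
Nuclear log2 knockdown/control against the GC content of the transcripts (%), with members coloured by complex over the protein-coding loci in grey and the y axis limited to -1.2 to 1.2. NDUFS7, NDUFA11 and ATP5D lie at high GC content below 0, and NDUFA5 lies at low GC content above 0.

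All 9 markers of K562 and the erythroid lineage passed the minimum, GATA1 among them. Of 12 markers of other cell types 4 passed it: CD3D (11.4 to 17.0 FPKM over the libraries), CD3E, COL1A2 (4.44 to 18.3) and EPCAM (10.7 to 23.7). MS4A1, a B cell marker, was listed at 0 in all 6 libraries. Across libraries 1 FPKM over 1 kilobase stood for about 13.4 to 39.0 fragments, and the member with the fewest estimated fragments in any library, NDUFA6-AS1, had 18.6 there. Of the 78 kept loci 23 carry several gene names, so their FPKM can include fragments of a neighbour. Fewer cells of a type and less RNA per cell cannot be told apart in such bulk libraries.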

How the data were processed

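The authors deposited FPKM values for 62828 loci, 1 column per library. No header states the unit, which follows from the values and the tools. TopHat2 2.0.13, Cuffdiff 2.2.1, FastQC and CASAVA appear in the submitters' processing notes, with the builds hg19 and mm9. Not given in the sources used here are the library scaling, the annotation and the use of strand in counting, so reads of NDUFA6 and its antisense partner may not be separated. Per the labels' protocols, ribosomal RNA was depleted and libraries were strand-specific.

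The minimum of 1 FPKM, as a mean over all 6 libraries, kept 12838 loci (10304 protein-coding by GENCODE release 29 symbols). Ratios are differences of log2(FPKM + 0.1), which understates the change of low loci. Fragments per locus were estimated from the steps in low FPKM values and from mean transcript lengths less 220 bases. Counting errors follow from them and cover counting only. Sequences are from RefSeq. A limma fit over the 3 preparations was not run, since the labels do not say whether they came from separate cultures.

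The members and lists were chosen with earlier results of these data known. Named members are the highest 2 and lowest 1 of each complex in control whole-cell FPKM, the 5 highest and 5 lowest ratios per preparation and control nuclear/cytosolic ratios, the 4 highest and 4 lowest shifts, and the isoforms; other genes named were chosen after their values were seen, and some that the rule picks are not reported here. The alternatives changed the pseudocount, the minimum, the scaling and the use of merged loci. Matplotlib 3.10.9, scipy 1.17.1, pandas 2.3.3 and numpy 2.4.6 ran under Python 3.11.15, and the calculation was tested on simulated data.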

Additional observations from a re-analysis of the deposited data

How the results depend on the processing

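The shift median and the nuclear and cytosolic knockdown/control medians moved by less than the 95% binomial range of the median over loci under the other 7 pseudocounts, filters, scalings and locus choices tried. Scaled to the protein-coding median, the whole-cell median was -0.0042, the nuclear/cytosolic median -0.86 in the control and -0.92 after knockdown, the nuclear 1.5-fold count 2, and 12 members were higher and 12 lower in all preparations. With equal totals the nuclear/cytosolic medians were -0.40 and -0.48. These 2 scalings multiply each library by 1 factor, so members and protein-coding loci moved together. The distance to the protein-coding median stayed at -0.79 in the control and -0.84 after knockdown under both. For whole-cell ratios it was -0.0011 and -0.0007. With quantile normalization the nuclear/cytosolic medians were -0.51 and -0.53 and the whole-cell median was -0.0090. The 1.5-fold counts were then 2 in whole-cell and 3 in nuclear RNA, and 14 members were lower in all preparations. Of 78 members, 19 then lay above the protein-coding nuclear/cytosolic median in the control, against 9 with the values as deposited. With single-name loci only, 3 of 55 were lower in all preparations and 5 of 55 lay above that median. Without the filter the 1.5-fold counts were 4, 4 and 2 of 83 loci in whole-cell, nuclear and cytosolic RNA. The loci this adds all have a mean under 1 FPKM. No protein-coding shares were computed for the 1.5-fold and same-direction counts under the settings of this section. None of these counts is therefore a result about the members. With a pseudocount of 1 (78 loci) or a minimum of 5 FPKM (75 loci) the nuclear count was 0. Leaving out a preparation gave 29 to 34 members higher and 10 to 17 lower in the remaining pair (each needs agreement in fewer libraries). Elsewhere the cause was not tested. Further settings were chosen after seeing the data: the nuclear rho with GC content was -0.62 over 55 single-name loci and -0.58 with quantile normalization. With it ATP5S (nuclear) had 0.75 and the NDUFA11 shift was -0.72.

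The control and knockdown libraries can be paired by preparation, but no paired analysis was run. A fit with preparation as a term over the 6 libraries leaves residual degrees of freedom and was not run, since the labels do not say whether the preparations came from separate cultures. Low members such as NDUFA6-AS1 and NDUFA4L2 are limited by depth.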
